A study of Danio rerio with 34 samples.

Results

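The comparison described here is that of hemogenic endothelial cells (HECs) with endothelial cells (ECs) in sibling zebrafish embryos. Its members are 6 RNA-seq libraries, 3 of ECs and 3 of HECs, out of 34 samples in the series, of which 16 are RNA-seq libraries and 18 are bisulfite libraries. Each count column carries its cell type, genotype and number in its name, and libraries were grouped by that name. The series measured expression and DNA methylation in siblings and *dnmt1* mutants, for ECs, HECs and the hematopoietic stem and progenitor cells (HSPCs) that follow them, in order to follow the steps by which blood stem cells arise from vessel wall. The cells came from the trunk, labelled as the aorta-gonad-mesonephros region, of embryos at 36 h post fertilization (hpf). All embryos carried the transgenes of Tg(*kdrl*:mCherry/*runx1*:en-GFP), in which endothelial cells are red and cells with an active *runx1* enhancer are green, and HECs are the cells positive for both. According to the methods of the study each library was made from 500 sorted cells, whereas the sample labels describe a single-cell protocol biased to the 3′ end. The sibling genotype was not broken down further. For these 6 libraries the title and genotype labels say sibling, while a second name in the description label says mutant, and the column names follow the titles. If the description were right, the comparison would be one between cell types within mutants.

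HECs are a small set of cells in the ventral wall of the dorsal aorta. They are endothelial by origin and switch on *runx1* and other blood transcription factors. In the endothelial-to-hematopoietic transition they change shape, turn down the arterial programme and leave the vessel wall as HSPCs. At the same stage the circulation of the embryo carries primitive red cells and myeloid cells that formed earlier and elsewhere.

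Counts on genes ranged from 3125048 to 13060881 per library in these 6 libraries. Correlations of log2 CPM over genes were 0.75 to 0.83 between EC libraries, 0.79 to 0.87 between HEC libraries and 0.69 to 0.83 across the 2 cell types, so the groups overlapped in overall similarity. Values given below are TMM-normalized CPM, the reads on a gene scaled to library size, in the order of libraries 1, 2 and 3. *dnmt1*, the maintenance methyltransferase that the mutants lack, was at 108, 67.7 and 43.8 in ECs and 119, 138 and 138 in HECs, and its sibling and mutant libraries overlapped in both cell types, so it does not settle the genotype labels. EC library 1 stood apart from the other EC libraries by its blood transcripts. *slc4a1a*, the anion exchanger of the red cell membrane, was at 112, 0.641 and 0 in ECs, and *mpx*, the myeloid peroxidase, at 911, 3.53 and 0. EC library 3 held the most transcripts of mesenchyme, with *twist1a* at 8.27, 27.6 and 79.4 in ECs against 0, 4.01 and 0 in HECs. The defining markers *mylpfa* of fast muscle and *fabp10a* of liver were at 0 in all 6 libraries. Another muscle gene, *actc1b*, was not, at 3.35, 0.321 and 28.6 in ECs and 8.40, 18.8 and 3.87 in HECs. *fabp10a* was at 0 in all 16 RNA-seq libraries, so it does not distinguish among them.

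Of the reporters' own genes, *kdrl* lay lower in HECs, although HECs were sorted as positive for its reporter, and *runx1* overlapped. *kdrl*, a receptor for Vegf, was at 282, 704 and 615 in ECs and 104, 255 and 84.2 in HECs, with no overlap, and the difference did not pass the test (log2 fold change -1.85 ± 0.89 SE, adjusted *P*-value 0.358 by edgeR's quasi-likelihood test). *runx1*, the master regulator of definitive blood, was at 12.5, 21.8 and 19.7 in ECs and 23.7, 19.1 and 78.9 in HECs. The highest value came from HEC library 3 and the groups overlapped, with a log2 fold change of 1.17 ± 0.75 (adjusted *P*-value 0.489 in the same test). Endogenous *runx1* therefore did not separate these EC and HEC libraries, although the gate was set on its enhancer.

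Across 21161 genes tested, 4 passed an adjusted *P*-value under 0.05 with a log2 fold change of at least 1 in edgeR's quasi-likelihood test (0.0189%). Of these, 2 were higher in HECs (0.00945%) and 2 were lower (0.00945%). *ank1a*, the ankyrin that ties the red cell membrane to its spectrin skeleton, was at 0.447, 0 and 0 in ECs and 37.1, 68.2 and 19 in HECs. These EC values are 2 reads against 640 in HECs, a ratio of 222 with a counting interval of 61.1 to 1834. *aldh1l2*, a mitochondrial enzyme of the folate cycle, was at 11, 5.77 and 17.2 and 71.8, 55.2 and 104, a log2 fold change of 2.75 ± 0.40. *grb10a*, an adaptor of insulin and growth factor receptors, was at 154, 299.5 and 209 in ECs and 26.9, 51.4 and 32.3 in HECs, a log2 fold change of -2.58 ± 0.36. The gene *si:dkeyp-97a10.1*, for which no function is given, was at 117, 142 and 217 and 16.5, 26.8 and 24.3. In each of the 4 genes every HEC library lay on the same side of every EC library, and the adjusted *P*-value was 0.0376. The 4 calls were not stable to the choice of libraries in the fit. When EC library 2, EC library 3 or HEC library 1 was left out, or when the 6 libraries were fitted alone, 0 genes passed in edgeR, with 1959 to 2400 genes at an unadjusted *P*-value under 0.05, and without HEC library 3 only *ank1a* did. DESeq2 called 1143 genes on the same counts, all 4 among them. The labels do not say whether libraries of a group came from separate clutches. *P*-values therefore measure only the spread between libraries, which the main fit estimated over all 16 RNA-seq libraries.

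Same-numbered EC and HEC libraries deviated together from their group means, and a fit with the replicate number as a block called 198 genes in siblings (0.936%), 83 higher (0.392%) and 115 lower (0.543%) in HECs. All 4 genes above were among them, and 193 of the 198 had no overlap between the groups. The lack of overlap is no separate support, because the genes were called from these same libraries. The count of 198 rose to 435 without EC library 1 and to 479 without HEC library 2, and it was 0 without EC library 2, EC library 3 or HEC library 1 and 2 without HEC library 3. On the 6 compared libraries alone the blocked fit called 0 genes, with 2403 at an unadjusted *P*-value under 0.05, where DESeq2 called 832. Verbs of change below refer to the blocked fit over all 16 libraries, and genes that did not pass it are given by their values. Fold changes of genes that rose or fell come from that fit, and those of other genes and the medians of gene lists from the fit without the block. Without the block, 1562 genes were higher at an unadjusted *P*-value under 0.05 (7.38%) and 1462 were lower (6.91%). All HEC libraries lay above all EC libraries in 2095 genes (9.9%) and below them in 1837 (8.68%). These shares are the background for the counts of gene groups that follow. The groups were 16 pathway lists with 681 tested genes, of which 15 rose and 22 fell, and 9 marker lists of other cell types. In bulk libraries a lower share of cells that express a gene and less RNA per cell cannot be told apart.

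**Figure D1:**
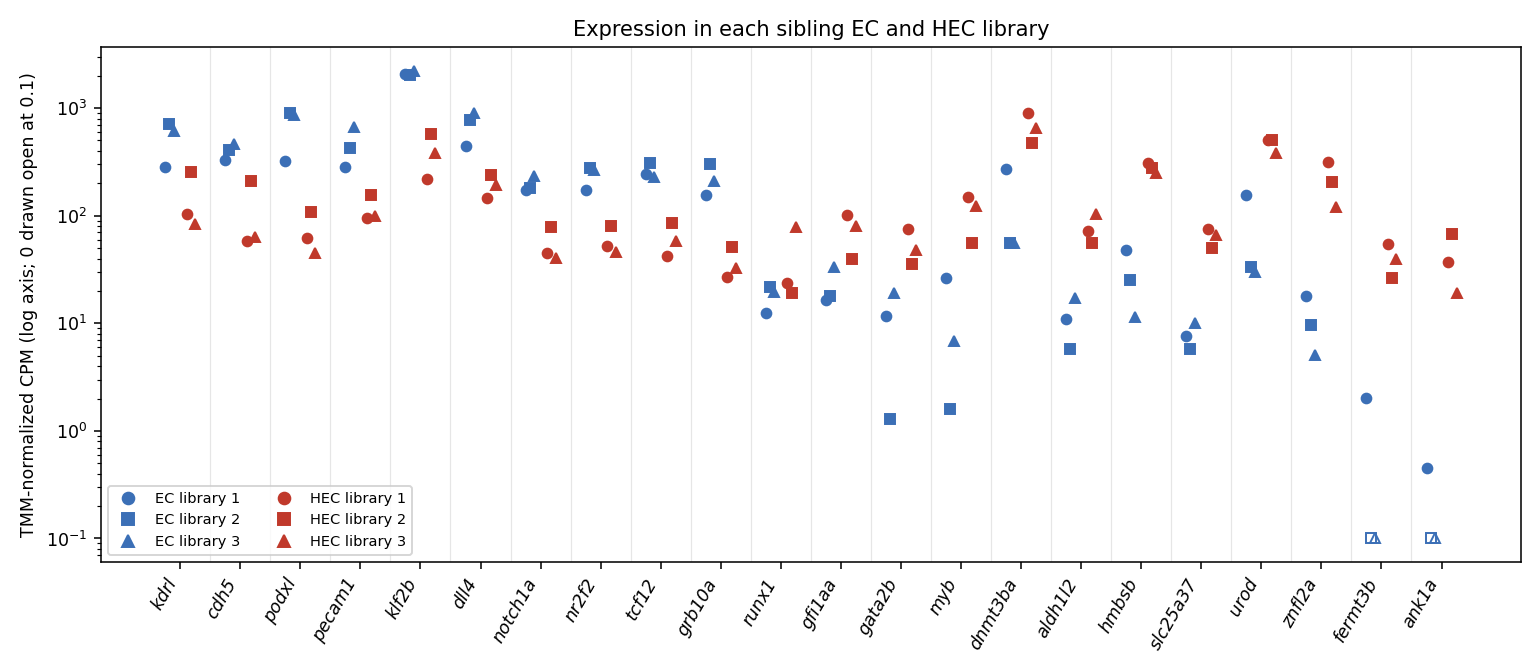
Expression of 22 named genes in each sibling library, as TMM-normalized CPM on a log axis. Each symbol is 1 library, circles for library 1, squares for library 2 and triangles for library 3, blue for ECs and red for HECs, and open symbols stand for a value of 0. The 10 genes on the left are lower in every HEC library than in every EC library, *runx1* overlaps between the groups, and the 11 genes from *gfi1aa* to *ank1a* are higher in every HEC library than in every EC library.

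Transcription factors of hemogenic endothelium and blood stem cells split into a higher and a lower set. Of 35 tested, 9 were higher and 6 were lower in HECs at an unadjusted *P*-value under 0.05, while 0 rose and 2 fell. *myb*, which marks emerging HSPCs, was at 26.6, 1.60 and 6.79 in ECs and 150.3, 56 and 124 in HECs, with every HEC library above every EC library. Its log2 fold change was 3.23 ± 1.18 and its adjusted *P*-value was 0.257 without and 0.0727 with the block, by edgeR's quasi-likelihood test. *gata2b*, an early factor of hemogenic endothelium upstream of *runx1* in zebrafish, was at 11.6, 1.28 and 19.3 and 75, 35.6 and 48, a log2 fold change of 2.29 ± 1.01. *gfi1aa*, a repressor that helps to silence the endothelial programme in hemogenic cells, was at 16.5, 18 and 33.5 and 103, 39.6 and 80.1. Both *gata2b* and *gfi1aa* were without overlap and did not pass the adjusted test, with *P*-values of 0.0392 and 0.157 before adjustment in edgeR.

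Factors of the blood lineages were also higher in HECs without passing the adjusted test. *gfi1b*, a repressor of the erythroid and megakaryocyte lineages, was at 3.80, 0.321 and 0 in ECs and 15.06, 34.6 and 21.3 in HECs. *spi1a* and *cebpa*, regulators of myeloid fate, had log2 fold changes of 4.04 and 2.57. For *ikzf1*, a lymphoid and stem cell factor, the value was 3.33, with 43.6, 1.28 and 0 in ECs and 135, 106 and 210.4 in HECs. EC library 1 was the highest EC library for each of these 4 genes. *cbfb*, the partner of Runx1, was at 92.8, 69.6 and 46 in ECs and 193, 93.3 and 180.4 in HECs, a log2 fold change of 1.17.

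The factors that were lower in HECs are ones that endothelial cells also use. *tcf12*, an E protein that pairs with Tal1, fell, with 244, 307 and 229 in ECs and 42.3, 85.1 and 58.5 in HECs (log2 fold change -2.09 ± 0.32, adjusted *P*-value 0.0199 with the block in edgeR). *junba*, an AP-1 subunit, fell from 1856, 2424 and 2742 to 633, 1395 and 1064. *gata2a*, the paralogue of *gata2b* that acts in the endothelium, was at 214, 131 and 202 and 36.2, 81.3 and 18.9, so the 2 Gata2 genes lay in opposite directions, both without overlap. *hhex* and *klf6a* had log2 fold changes of -1.07 and -1.31 and were likewise below ECs in every HEC library. The median log2 fold change of the whole list was 0.36, beside 0.06 for all genes tested.

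Red cell genes were higher in HECs. Of 43 tested, 33 were higher and 1 was lower at an unadjusted *P*-value under 0.05, and 35 had every HEC library above every EC library. The median log2 fold change was 3.61, or 3.56 with genes at 0 reads in all ECs set to a floor of 3 reads over the group. With the block 13 rose and 0 fell, among them 5 genes of heme synthesis. *hmbsb*, the hydroxymethylbilane synthase, was at 48.1, 25 and 11.4 in ECs and 309.8, 279 and 247 in HECs, a log2 fold change of 3.45 ± 0.49. *urod*, a decarboxylase further down the pathway, was at 155, 33 and 30.2 and 508, 503 and 381. The next enzyme, *cpox*, was at 36.5, 9.62 and 8.85 in ECs and 158, 157 and 83.4 in HECs. The last enzyme, *fech*, which puts iron into the ring, was at 8.05, 0 and 2.05 and 55, 74.3 and 27.8, and *hmbsa* at 34.4, 36.2 and 20.4 and 170.3, 175 and 88.1. In all 5 genes the lowest HEC library exceeded the highest EC library, and EC library 1 or 2 was the highest of the ECs. The mitochondrial iron importer *slc25a37* was at 7.60, 5.77 and 10.11 in ECs and 75, 50.4 and 66.5 in HECs, with a log2 fold change of 3.08 ± 0.32, and its adjusted *P*-value was 0.0109, the lowest of any gene in edgeR's blocked fit.

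The list also holds structural and regulatory red cell genes. *tmod4*, a tropomodulin, which caps actin filaments, had 0 reads in ECs and was at 32.7, 38.6 and 51.8 in HECs, which makes it at least 213-fold higher against a floor of 3 reads over the EC group. *znfl2a*, a zinc finger-like gene, was at 18.1, 9.62 and 5.05 in ECs and 317, 206 and 119.6 in HECs. *bcl11aa*, known in mammals for silencing fetal globin, was at 3.35, 5.13 and 0.790 and 31.9, 43.41 and 67.7. *prdx2*, a peroxide-removing enzyme abundant in red cells, and *tspo*, a mitochondrial outer membrane protein, rose by log2 fold changes of 1.42 and 3.25. The embryonic globin *hbbe3* rose, from 0.224, 1.28 and 0 to 832, 525 and 131. The alpha globin *hbae3* was at 739, 2.89 and 0 in ECs and 6415, 4952 and 931 in HECs, without overlap. *hbae1* overlapped between the groups, at 571, 0.641 and 0 and 3399.6, 2977 and 375, and near-identical globin copies may share reads. *klf1*, the erythroid Kruppel-like factor, was at 5.14, 0.641 and 0 and 44.9, 64.2 and 33.7 and did not pass the adjusted test. *gata1a*, the master factor of red cells, had 0 reads in ECs and only 17 reads in HECs, at 0.869, 2.76 and 0.237. *klf3*, the 1 member lower at an unadjusted *P*-value under 0.05, had a log2 fold change of -1.59. Summed over the 43 genes of the list in the table, expression was 3779, 705 and 658 in ECs and 26182, 23372 and 7568 in HECs. The part of circulating red cells in this result was not tested. Without EC library 1 the blocked fit called 21 members higher, with a median of 4.36. It called 0 without EC library 2, EC library 3 or HEC library 1, and 2 higher without HEC library 3.

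Genes of early blood cell surface and signalling and genes of myeloid cells were higher in HECs but varied more between HEC libraries. Of 28 surface and signalling genes tested, 7 were higher and 1 was lower at an unadjusted *P*-value under 0.05, with a median of 2.77. *fermt3b*, the kindlin that activates integrins of blood cells, rose from 2.01, 0 and 0 to 54.1, 26.6 and 40.0 (log2 fold change 6.27 ± 1.32). *ptprc*, the pan-leukocyte phosphatase CD45, was at 41.1, 0 and 1.90 in ECs and 200.1, 56.5 and 344 in HECs. The groups did not overlap, and the log2 fold change was 3.80 ± 1.73 with an adjusted *P*-value of 0.342 in edgeR. *lcp1*, the leukocyte plastin, overlapped, at 652, 31.7 and 75.2 in ECs and 2446, 632 and 4152 in HECs. The exception was *cxcr4a*, a chemokine receptor of endothelium and blood, which was lower in HECs, at 185, 241 and 388 against 28.7, 72.8 and 61.4.

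Among 35 myeloid genes tested, 10 were higher at an unadjusted *P*-value under 0.05 and 0 were lower, the median was 3.23, and 0 rose or fell in the blocked fit, against 4 called by DESeq2. *mmp9*, a gelatinase of neutrophils, was at 140.4, 14.4 and 0 in ECs and 1751, 880.5 and 7056 in HECs. *csf1rb*, a receptor for macrophage growth factor, was at 11.6, 0 and 0 and 118, 65 and 154, and *alox5a*, the enzyme that starts leukotriene synthesis, at 1.57, 0 and 0 and 23.5, 10.8 and 41.5. HEC library 3 was the highest for these 3 genes. *mpx* was at 4531, 419 and 8450 in HECs, against 911, 3.53 and 0 in ECs, so HEC library 2 lay below EC library 1. The summed level of 44 myeloid genes was 4437, 862 and 698 in ECs and 17834, 3371 and 36294 in HECs, and the groups overlapped. Whether myeloid cells in the gate carry these transcripts was not tested. Without EC library 1 the blocked fit called 4 myeloid genes and 5 surface and signalling genes higher. Without HEC library 2 it called 0 and 1. Without EC library 2, EC library 3, HEC library 1 or HEC library 3 it called 0 of either list.

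Inflammatory signalling genes are known to promote HSPC emergence in zebrafish. Of 47 tested, 6 were higher and 3 were lower at an unadjusted *P*-value under 0.05, the latter a share near that of all genes, with a median of 0.41. *irf7*, an interferon regulatory factor, was at 27.5, 4.81 and 2.53 in ECs and 53.9, 40.4 and 122 in HECs. The cytokine genes *tnfa*, *il6* and *csf3a* were highest in HEC library 3, at 2.03, 6.27 and 149, 7.82, 26.6 and 201 and 21.7, 22.1 and 364 in HECs, and without that library their log2 fold changes were 2.24, 4.99 and 6.50. These cytokine genes did not pass the adjusted test with or without the block in edgeR. For *nfkbiaa*, the inhibitor and target of NF-kappaB, the values were 104, 23.1 and 3.63 and 147, 153 and 886. In the other direction *socs3a*, a feedback inhibitor of cytokine receptors, fell, from 1756, 2443 and 3723 in ECs to 541, 706 and 947 in HECs (log2 fold change -1.83 ± 0.31, adjusted *P*-value 0.0254 with the block in edgeR).

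**Figure D2:**
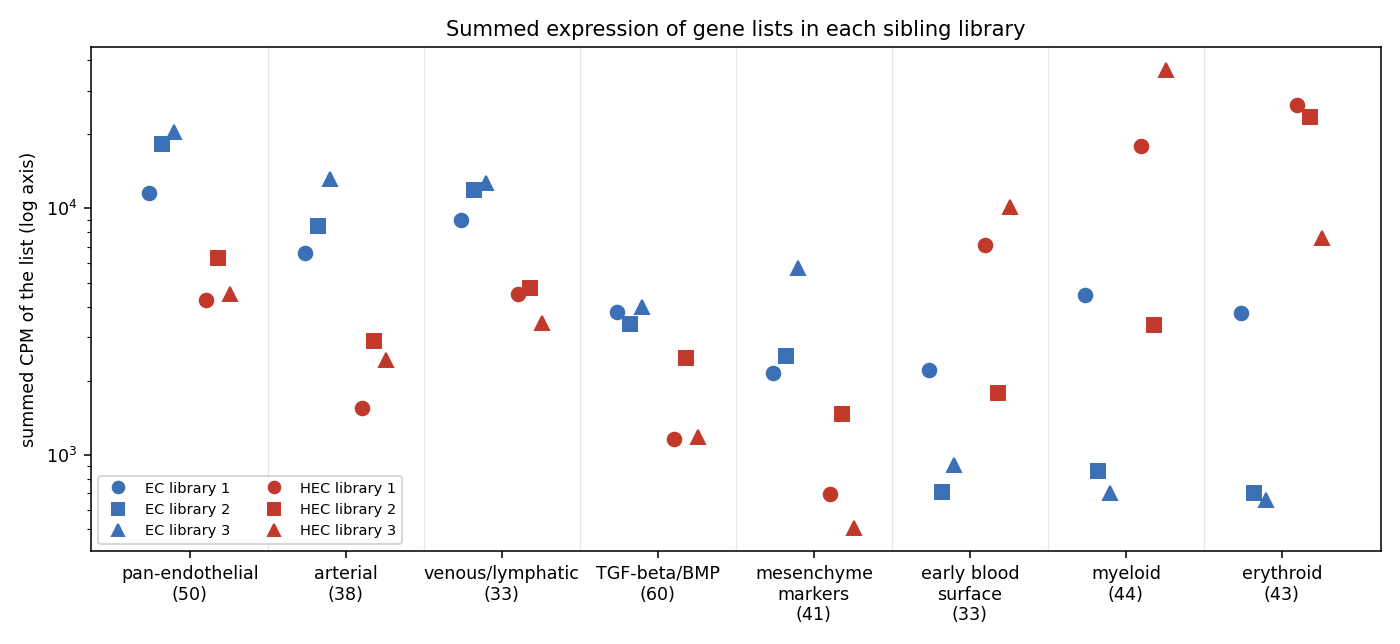
Summed TMM-normalized CPM of 8 gene lists in each sibling library, on a log axis, with the number of genes in the table in brackets. Symbols are as in the plot of named genes, circles, squares and triangles for libraries 1, 2 and 3. Endothelial, arterial, venous, TGF-beta and mesenchyme sums are lower in every HEC library than in every EC library, the erythroid sum is higher in every HEC library, and the early blood and myeloid sums overlap because EC library 1 lies above HEC library 2.

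Endothelial identity genes were lower in HECs almost throughout. Of 47 pan-endothelial genes tested, 32 were lower and 0 were higher at an unadjusted *P*-value under 0.05, 35 had every HEC library below every EC library, and the median log2 fold change was -1.62. With the block 5 fell and 0 rose. *podxl*, a sialomucin of the luminal surface, fell from 322, 894 and 858 in ECs to 61.4, 109 and 45.1 in HECs (log2 fold change -3.36 ± 0.53, adjusted *P*-value 0.0223 in edgeR). *acvrl1*, the Alk1 receptor for circulating Bmp ligands, fell from 70.0, 132 and 157 to 6.66, 22.3 and 7.35. *cldn5b*, a claudin of endothelial tight junctions, fell from 308, 546 and 831 to 67.8, 149 and 80.3, *pecam1*, an adhesion molecule between endothelial cells, from 283, 424 and 674 to 94.7, 155 and 99.6, and *sele*, a selectin, from 729.7, 2005 and 1638 to 215, 602 and 328. HEC library 2 was the highest HEC library for all 5 genes, and EC library 1 was the lowest EC library.

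The junction and receptor genes that did not pass lay in the same direction. *cdh5*, the cadherin of endothelial junctions, was at 326, 409 and 465 in ECs and 57.9, 209 and 63.8 in HECs, a log2 fold change of -1.86 ± 0.76 with adjusted *P*-values of 0.301 without and 0.12 with the block in edgeR. *tie1*, a receptor kinase, was at 62.2, 150.1 and 105 and 28.1, 52.9 and 16.4. *egfl7*, a secreted factor of endothelium and host of a microRNA, was at 419, 1506 and 2035 and 224, 381 and 317. The Ets factors that specify endothelium were lower too. *fli1a* was at 833, 1436 and 1339.7 in ECs and 608, 559 and 627 in HECs, and *etv2* and *erg* had log2 fold changes of -1.57 and -1.93. In each of these 6 genes the groups did not overlap. The pan-endothelial sum was 11540, 18231 and 20459 in ECs and 4252, 6304 and 4486 in HECs, so every HEC library still held endothelial transcripts at a lower level. HECs thus had both a lower level of endothelial genes and the higher level of blood genes described above. How much of one follows from the other was not tested.

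Arterial genes, which mark the aorta wall that HECs come from, included 6 that fell and 0 that rose among 36 tested, and 15 were lower and 0 were higher at an unadjusted *P*-value under 0.05 (median -1.52). *klf2b*, a transcription factor switched on by blood flow, was at 2055, 2045 and 2223 in ECs and 219.5, 580.1 and 380.4 in HECs, with a log2 fold change of -2.45 ± 0.37 (adjusted *P*-value 0.0199 with the block in edgeR). The EC libraries agreed closely with each other for this gene while HEC libraries ranged over more than 1 log2 unit. Its paralogue *klf2a* was at 46.1, 74.7 and 97.3 and 6.08, 19.8 and 6.24 and did not pass. *aqp1a.1*, a water channel, fell from 1472, 2232 and 5493 to 514, 567 and 1032. *hey2* and *efnb2b*, arterial effectors of Notch and ephrin signalling, had log2 fold changes of -1.75 and -1.32 at unadjusted *P*-values of 0.0486 and 0.0317 in edgeR. The list shares *cldn5b*, *dll4*, *lfng*, *notch1a* and other genes with the endothelial and Notch lists, so the counts of these lists are not independent.

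Notch signalling sets arterial fate and is needed before hemogenic specification and then has to decline. Among receptors, *notch1a* fell, with 173, 179 and 234 in ECs and 44.9, 78.5 and 40.3 in HECs (log2 fold change -1.88 ± 0.32). *notch1b* was at 317, 323 and 431 and 103, 144 and 125, without overlap, a log2 fold change of -1.52 ± 0.49 with an adjusted *P*-value of 0.203 without and 0.149 with the block in edgeR. Among ligands *dll4*, the main endothelial one, fell from 441, 771 and 909 to 147, 238 and 192 (log2 fold change -1.85 ± 0.38, adjusted *P*-value 0.047 with the block in edgeR). The ligands *dld* and *dlc* were at 33.8, 28.9 and 64.3 and 21, 126 and 266 in ECs and at 2.90, 10.5 and 5.69 and 10.7, 29.6 and 43.2 in HECs. *lfng*, a glycosyltransferase that tunes which ligands a Notch receptor hears, fell from 479, 397 and 433 to 151, 163 and 62.4. Of 39 receptors, ligands and modulators 7 were lower and 0 were higher at an unadjusted *P*-value under 0.05, with a median of -0.53. Among 20 target genes 6 were lower and 1 was higher. The targets *her4.3* and *her4.4* were at 8.05, 6.41 and 0.632 and 31.8, 38.8 and 4.42 in ECs and at 0, 0 and 0 and 0, 2.01 and 0 in HECs, and near-identical *her4* copies may share reads.

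Venous, lymphatic and scavenger endothelial genes were lower too, with a median of -1.67. Of 32 tested, 16 were lower and 1 was higher at an unadjusted *P*-value under 0.05, 22 had every HEC library below every EC library, and 4 fell. *nr2f2*, the orphan receptor that sets venous fate, fell from 172, 275 and 265 to 52.1, 80.3 and 46 (log2 fold change -2.04 ± 0.27, adjusted *P*-value 0.0156 with the block in edgeR). Its relative *nr2f1a* fell from 122, 131 and 190.0 to 28.7, 37.6 and 20.6, and the venous ephrin receptor *ephb4b* from 113, 118 and 82.4 to 29.8, 57 and 36. *prox1a*, the lymphatic master factor, was at 27.5, 87.2 and 72.3 and 9.56, 6.52 and 4.66 and did not pass. The 1 gene in the other direction, *igfbp5a*, had 0 reads in ECs and was at 0.579, 1.76 and 0.948 in HECs.

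TGF-beta and BMP signalling genes and genes of vessel guidance were also lower. The first group had 17 lower and 1 higher at an unadjusted *P*-value under 0.05 among 55 tested, and 3 fell. Besides *acvrl1* these were *smad5*, a transducer of Bmp signals, at 213, 282 and 235 in ECs and 55.6, 101 and 29.4 in HECs, and the inhibitory *smad7*, at 66.6, 73.4 and 138 and 18.2, 38.4 and 40.9. *smad6b*, the other inhibitory Smad, was at 136, 119.9 and 282 and 17.1, 74 and 26.8, and the receptor *bmpr2b* at 34.4, 38.8 and 98.1 and 9.85, 22.1 and 11.9, both without overlap. *snai1a*, a repressor of junction genes in epithelial transitions, was lower rather than higher, at 52.6, 54.5 and 52.6 against 6.37, 11 and 13. The 1 member higher at an unadjusted *P*-value under 0.05 was *zeb1a*, with a log2 fold change of 1.24.

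Of 72 chemokine, growth factor and guidance genes tested, 19 were lower and 1 was higher at an unadjusted *P*-value under 0.05, and 2 fell. *ece1*, which processes endothelins, fell from 83.4, 91.4 and 156 to 15.06, 26.6 and 14.4, and *smo*, the Hedgehog transducer, from 58.8, 100.4 and 61.8 to 11.3, 22.6 and 11.2. *apln*, a ligand of sprouting vessels, was at 111, 170.0 and 321 in ECs and 28.4, 82.6 and 22.3 in HECs and did not pass. The 1 gene higher was *angpt1*, a ligand of Tie2, with a log2 fold change of 2.40.

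Cytoskeleton, adhesion and matrix genes were lower more often than all genes. Among 80 tested, 28 were lower at an unadjusted *P*-value under 0.05, and 7 were higher, a share near that of all genes. *rac1a*, a small GTPase of cell spreading, fell from 369.9, 567 and 432 in ECs to 98.7, 167 and 69.4 in HECs, and *tjp1a*, the scaffold ZO-1 of tight junctions, from 386, 480.4 and 552 to 96.4, 190.4 and 65.6. Basement membrane genes were lower, with *col4a1* at 76.9, 97.8 and 86.4 and 10.7, 44.2 and 11 and *lama4* at 242, 280.3 and 399 and 103, 177 and 44.1. Of the 7 higher genes, *pfn1*, a profilin, was at 2790.2, 967 and 459 and 8156, 3129 and 7067 and *myh9a*, the heavy chain of nonmuscle myosin, at 134, 45.2 and 19.7 and 327, 198 and 484. These 4 genes did not pass the adjusted test.

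Some of the lower matrix genes are fibroblast collagens rather than vessel genes. *col5a1* was at 94.4, 83.7 and 518 in ECs and 0, 28.6 and 1.42 in HECs, highest in EC library 3 among ECs and in library 2 among HECs. Of 41 mesenchyme markers tested, 23 were lower and 0 were higher at an unadjusted *P*-value under 0.05, with a median of -3.15. Their summed level was 2145, 2512 and 5720 in ECs and 696, 1467 and 504 in HECs, without overlap, and 0 of them fell in the blocked fit of edgeR, against 11 called by DESeq2. *twist1b*, a mesoderm and neural crest factor, was at 1.12, 3.85 and 29.9 in ECs and 0, 0 and 0 in HECs. The part of mesenchyme in the lower matrix and TGF-beta genes was not tested. Markers of neural crest (27 in the table) and skeletal muscle (38) overlapped in their sums. The sum of 42 epidermal markers was 3989, 1763 and 1383 in ECs and 8417, 5516 and 7317 in HECs, but *pfn1* carried this difference. Without it the sum was 1199, 796 and 924 in ECs and 261, 2388 and 250 in HECs, and the groups overlapped. The sums of 19 mural cell, 30 pronephros and 43 endoderm markers lay lower in every HEC library than in every EC library, at 620 to 1156, 989 to 1571 and 456 to 597 in ECs and 292 to 547, 505 to 655 and 225 to 315 in HECs. These lists share genes with the endothelial, arterial and venous lists, such as *notch3* in the mural list. The pronephros list holds *podxl*, which fell and is a large part of that sum. The endoderm list holds *hhex*, *prox1a* and *sox17*. Sums without the shared genes were not computed, so the differences are not shown to be particular to those tissues.

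**Figure D3:**
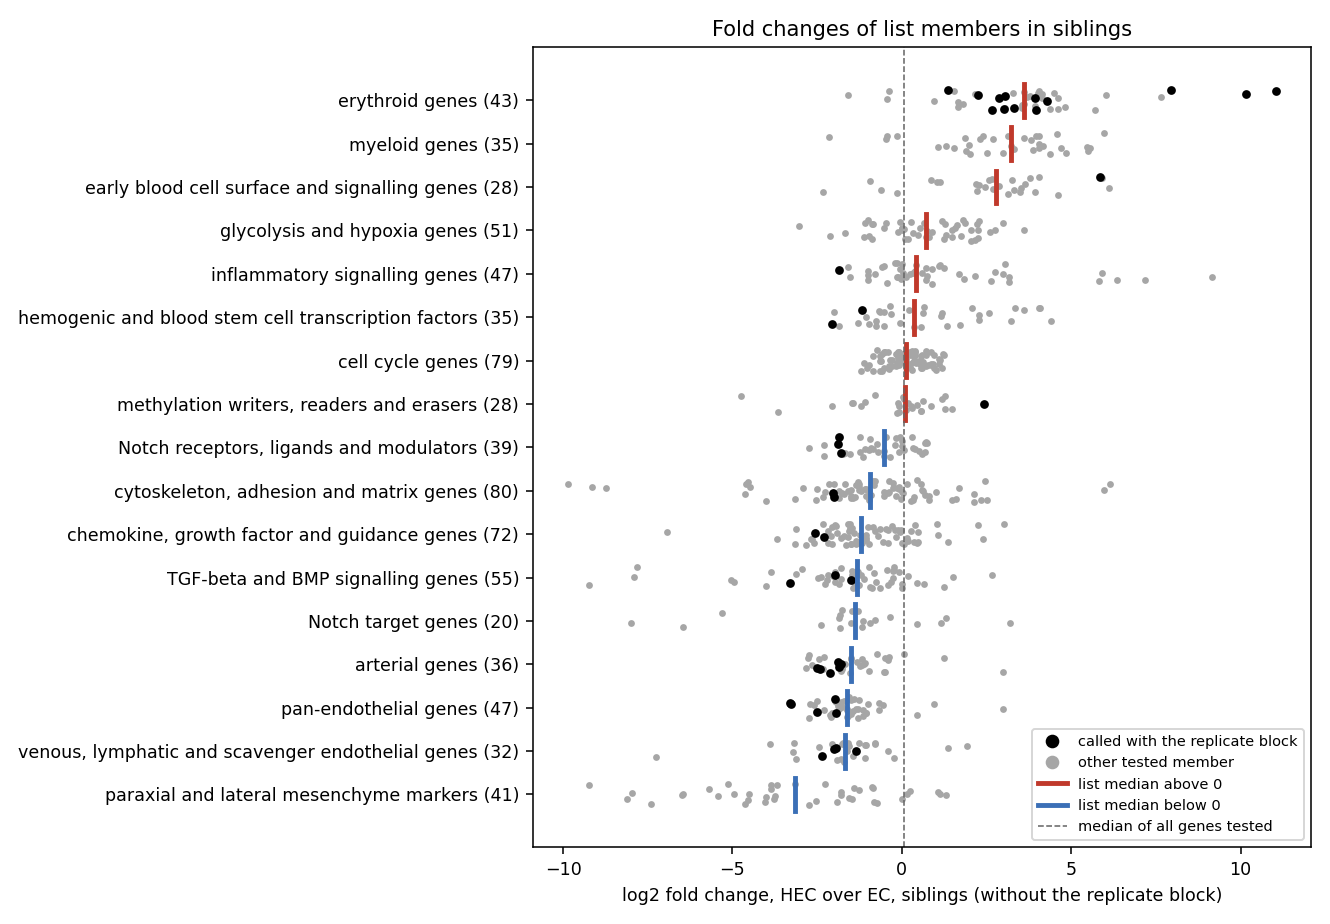
Log2 fold changes of HECs over ECs in siblings for every tested member of the 16 pathway lists and of the mesenchyme markers, with the number tested in brackets. Each dot is 1 gene, black where the blocked fit called it and grey otherwise, bars are list medians and the dashed line is the median of all genes at 0.06. Medians run from -3.15 for mesenchyme markers and -1.67 for venous genes to 3.61 for erythroid genes, while cell cycle and methylation genes centre near the dashed line.

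Glycolysis and hypoxia genes were more often higher than lower in HECs, with 35 higher and 14 lower by the sign of the fold change. Of all 21161 genes tested, 11057 were higher and 9734 were lower by sign. Every HEC library lay above every EC library in 8 glycolysis and hypoxia genes (15.7%) and below in 3 (5.88%). Of 51 glycolysis and hypoxia genes tested, 9 were higher and 0 were lower at an unadjusted *P*-value under 0.05 (median 0.71), and 0 passed the adjusted test with or without the block in edgeR, against 6 in DESeq2. *pkma*, a pyruvate kinase, was at 229, 115 and 79.3 in ECs and 846, 315 and 1402 in HECs. *aldocb*, an aldolase, was at 111, 31.4 and 31.4 and 319, 141 and 255, and *hk2*, a hexokinase, at 11.9, 8.34 and 7.90 and 26.6, 22.1 and 53.3. These 3 genes had no overlap between the groups, and HEC library 2 was the lowest HEC library for each. Cell cycle genes differed little in fold change, with a median of 0.13. Of 79 tested, 5 were higher (6.33%) and 1 was lower (1.27%) at an unadjusted *P*-value under 0.05 in edgeR, beside 7.38% and 6.91% of all genes. Every HEC library lay above every EC library in 14 (17.7%) and below in 3 (3.8%), beside 9.9% and 8.68% of all genes. *rrm1*, a subunit of ribonucleotide reductase, was at 201, 181 and 131 and 307, 280.0 and 527, and *mcm7*, part of the replicative helicase, at 189, 87.2 and 125 and 221, 353 and 286.

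Methylation writers, readers and erasers were mostly level between the cell types. Of 28 tested, 1 was higher and 3 were lower at an unadjusted *P*-value under 0.05 and the median was 0.09. *dnmt3ba*, a de novo methyltransferase, rose from 271, 55.5 and 55.3 in ECs to 908, 473 and 659 in HECs (log2 fold change 2.86 ± 0.52, adjusted *P*-value 0.0322 with the block in edgeR, 0.208 without). EC library 1, the one with blood transcripts, was again the highest EC library. *dnmt1* was higher in HECs in every library, at 119, 138 and 138 against 108, 67.7 and 43.8, with a log2 fold change of 0.85 ± 0.43 that did not pass (adjusted *P*-value 0.384 in edgeR). *gadd45ab* and *gadd45ba*, stress genes that have been tied to demethylation, were at 74.9, 58.4 and 122 and 615, 528 and 615 in ECs and at 20.6, 37.9 and 35.7 and 116, 455 and 193 in HECs.

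Of the 198 genes called with the block, 161 are in no pathway list, and the ones named in this paragraph were chosen after their values were seen. No list of their pathways was tested, so they are given singly. *shmt2*, the mitochondrial serine hydroxymethyltransferase, rose, with 9.39, 13.1 and 5.53 in ECs and 44, 36.4 and 44.2 in HECs, and so did *mthfd2_1*, the next mitochondrial folate enzyme, with 40.5, 10.9 and 15 and 118, 41.4 and 77. *tdh*, which breaks down threonine to glycine, rose from 271, 126 and 78.5 to 773, 488 and 693. The amino acid transporter genes *slc38a5a* and *slc3a2b* rose from 10.7, 6.09 and 7.58 to 79.9, 34.4 and 100.3 and from 56.1, 84.3 and 79.3 to 156, 202 and 409, and the tRNA synthetase genes *eprs*, *kars* and *nars* rose with log2 fold changes of 1.69, 1.47 and 1.53. The iron transporter *slc11a2* rose from 30.9, 14.8 and 11.2 to 109, 112 and 80.9. *adgrg3*, an adhesion receptor known from mammalian neutrophils, was at 1.12, 0 and 0 and 64.3, 32.1 and 134, and the precursor of the myeloid microRNA miR-223, listed as *mir223_1*, at 3.58, 0.962 and 0.790 and 74.4, 22.6 and 33.6.

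The genes in this paragraph, which fell, were likewise chosen after their values were seen and stand for no tested list. The actin bundler *fscn1a* was at 605, 1103 and 384 in ECs and 85.4, 354 and 86.8 in HECs, so HEC library 2 lay just below EC library 3. *pfn2l*, a profilin, fell from 585, 654 and 566 to 155, 226 and 95.2 while *pfn1* lay in the other direction. *akap12b*, a scaffold of vessel integrity, fell from 529, 713 and 997 to 78.5, 204 and 85.8. The collagen chaperone genes *serpinh1b* and *serpinh1a* fell from 199, 202 and 267 and 78.7, 113 and 99.5 to 18, 48.9 and 13.1 and 15.9, 27.1 and 10.8. *reck*, a membrane protein that brain vessels need for Wnt signals, fell from 162, 204 and 368 to 52.7, 48.2 and 45.4.

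The same contrast in *dnmt1* mutants, which shares no library with the sibling contrast, called 1 gene at the same thresholds (0.00473%), and 1509 genes were higher (7.13%) and 1734 were lower (8.19%) at an unadjusted *P*-value under 0.05. Of the 3024 genes at that level in siblings, 2789 had the same sign in mutants (92.2%), and so had all 198 genes called with the block. The share with the same sign over all genes tested was not computed, so these counts have no background beside them. The mutant libraries were also part of the blocked fit that called the 198 genes, where they helped to set the spread. Sibling and mutant libraries that share a cell type and a number also shared their departures from the group means (correlations over genes of 0.19 to 0.43). The 2 contrasts are therefore not fully separate evidence. In the fit without the block, *myb* had log2 fold changes of 3.23 in siblings and 3.74 in mutants, *hmbsb* of 3.31 and 3.34, *grb10a* of -2.58 and -2.34, and *nr2f2* of -2.00 and -1.94. A test of the difference between genotypes called 0 genes in edgeR (0%), with 767 at an unadjusted *P*-value under 0.05 (3.62%), and 30 in DESeq2. Of red cell genes with few reads in ECs, *ank1a* had 7.96 in siblings and 2.90 in mutants (*P*-value 0.00121 before and 1 after adjustment in edgeR), and *hbbe3* had 10.16 and 2.29. Red cell transcripts in ECs were again uneven, with *hbae3* at 809, 0 and 65.2 in mutant ECs beside 739, 2.89 and 0 in sibling ECs. Transcripts of other tissues were uneven in mutant libraries too. The skeletal muscle sum was 14270, 97.4 and 605 in mutant HECs. In mutant ECs the notochord sum was 327, 2245 and 522 and the mesenchyme sum 3020, 4709 and 13146.

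**Figure D4:**
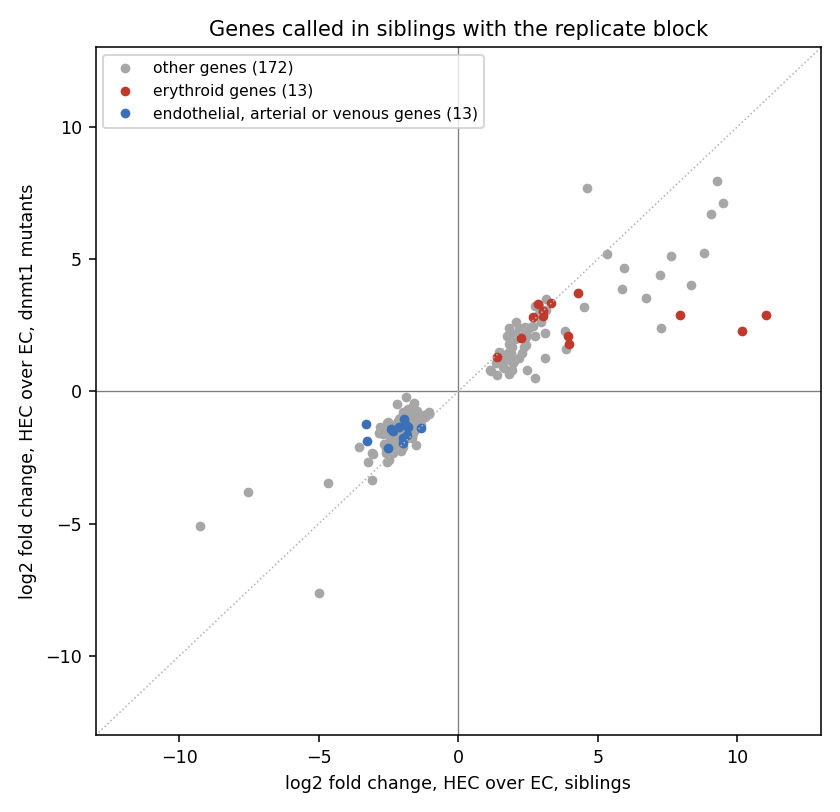
Log2 fold changes of HECs over ECs in siblings (x axis) and in *dnmt1* mutants (y axis) for the 198 genes that the blocked fit called in siblings. Each dot is 1 gene, red for 13 erythroid genes, blue for 13 genes of the endothelial, arterial and venous lists and grey for 172 others, and the dotted line marks equal values. All 198 dots lie in the quadrants of equal sign. Many lie nearer to 0 in mutants, and the genes had been chosen by their sibling values.

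Sibling HSPCs, of which there are 2 libraries, follow HECs in the series, and their comparison with HECs shares the HEC libraries. *cdh5* was at 0 in both HSPC libraries and *pecam1* at 0.865 and 0.170, below the 94.7, 155 and 99.6 of HECs. *ank1a* was at 299 and 377, above the 37.1, 68.2 and 19 of HECs, and the sum of red cell genes was 230590 and 74391. Other tissues were uneven in these 2 libraries, with a skeletal muscle sum of 51 and 49523 (137 to 251 in HECs) and a neural crest sum of 4351 and 206 (140 to 203 in HECs). *myb* was at 16.4 and 11.5, below the 150.3, 56 and 124 of HECs.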

How the data were processed

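RNA-seq was analysed in 3 EC and 3 HEC libraries of siblings, with all 16 RNA-seq libraries in the fit. Libraries were grouped by the names of the count columns. The authors trimmed reads with cutadapt, mapped them to GRCz11 with HISAT2 2.2.1 and counted them on genes with HTSeq 0.12.4, and the deposited counts are not normalized. The annotation and the strand setting are not given in the sources used here, so overlapping and antisense genes cannot be told apart. The 5 tallies of reads given to no gene, 45.8% of all reads, stayed out of library sizes and tests. Bisulfite region lists and the authors' fold-change tables, which hold their own comparisons, were not used.

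Counts were tested with edgeR 4.0.16 in R 4.3.3 (TMM, the package's low-count filter, robust quasi-likelihood, 21161 of 47048 genes kept, Benjamini-Hochberg adjustment). Calls needed an adjusted *P*-value under 0.05 and a log2 fold change of at least 1 in size. The standard error (SE) was taken from the fold change and the F statistic. As alternatives, the scaling was changed to RLE size factors, the filter was dropped or raised to a minimum of 10 counts in all compared libraries, and fits were made with no fold minimum, no robust estimation, the compared groups alone, the replicate block or 1 library left out. DESeq2 1.42.0 was run with thresholds of 0.05 and, as in the methods of the study, 0.5 on the adjusted *P*-value. A fit of the 12 EC and HEC libraries, DESeq2 on the compared groups alone and the block with each library left out were added after the data were seen.

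Same-numbered EC and HEC sibling libraries shared their deviations from the group means (correlation over genes 0.13 to 0.19, against at most -0.05 for different numbers). Deviations from a group mean cancel out within the group, so positive values for equal numbers bring negative ones for different numbers. The contrast between them is therefore partly built in. The numbers were taken to pair the libraries because every same-number value was over the limit of 0.1. This pairing comes from the labels' numbers and this check, since neither the labels nor the methods state a shared clutch or day.

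The members and the gene lists were chosen with earlier results of these data known. The lists hold 1063 genes, of which 1028 were found in the table, 19 by a synonym of RefSeq. Genes named are landmark genes (*kdrl*, *runx1*, *myb*, *gata2b*, *gfi1aa*, *cdh5*, *dll4*, *notch1b*, *dnmt1*, *ptprc*, *gata1a*), called genes without overlap between the groups (up to 15 in each direction), list members that were called and, because under 10 genes were called, list members at an unadjusted *P*-value under 0.05. Other genes named passed the blocked fit or mark another cell type. The 95% interval of a ratio of reads is an exact binomial one, and it and the floor of 3 reads cover counting error only. Fits were tested on simulated data for the sibling contrast over 21161 genes. With 200 genes changed by a log2 of 3 at the spread seen in the data, edgeR found 43 with 2 other genes called, the blocked fit 29 with 1 other, and DESeq2 97 with 57 others. The simulated libraries carried no effect shared by equal replicate numbers. These counts therefore cannot show how the blocked fit performs on paired libraries. A search for motifs in promoters was planned and not run. Plots were drawn with matplotlib 3.10.9.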

Additional observations from a re-analysis of the deposited data

How the results depend on the processing

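The number of genes called depended strongly on the fit, while the sign of named genes seldom changed. Named genes other than the landmark genes were mostly chosen by their values in these libraries. The alternatives reuse the same libraries, so the stable signs are no separate support. In siblings edgeR called 4 genes. It called 53 without a filter, 112 with at least 10 counts in every compared library, 74 over the EC and HEC libraries of both genotypes, and 0 when the compared groups were fitted alone, with or without the replicate block, or without robust estimation (2055, 2403 and 3017 with an unadjusted *P*-value below 0.05). DESeq2 called 1143 at an adjusted *P*-value under 0.05, 5282 under 0.5 and 832 on the compared groups alone. Leaving out 1 library gave 0 to 190 calls, with 190 without EC library 1, 166 without HEC library 2, 1 without HEC library 3 and 0 without EC library 2, EC library 3 or HEC library 1. Of 24 alternatives, 11 kept all 4 genes, and 9 kept 0.

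With the replicate block the count in siblings was 198. It was 435 without EC library 1, 479 without HEC library 2, 2 without HEC library 3 and 0 without any 1 of the others. In mutants it was 168 with the block against 1 without it, and 10 with the block on the compared groups alone. Other counts in mutants were 20 without a filter, 5 with at least 10 counts, 82 for the compared groups alone, 1225 and 5738 in DESeq2 at the 2 thresholds, and 0 to 1 with 1 library left out. The test of the difference between genotypes called 0 in each edgeR fit and 30 and 130 in DESeq2.

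Members of the pathway lists called numbered 1, and 17 without a filter, 27 with at least 10 counts, 26 over the EC and HEC libraries of both genotypes, 37 with the block, 0 for the compared groups alone with or without the block and without robust estimation, 119, 320 and 120 in the DESeq2 fits, 0 to 38 with 1 library left out and, with the block as well, 66 without EC library 1, 76 without HEC library 2, 2 without HEC library 3 and 0 without any 1 of the others. The median fold change of 13 of the 16 pathway lists kept its sign in all alternatives. The exceptions were the hemogenic transcription factors, the inflammatory genes and the methylation genes.

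Single named genes kept their side of the threshold in 5458 of their fits, passed it in 814 where they had not before, and lost it in 43. The first count is mostly of genes that passed neither in the main fit nor in the alternative, so it does not measure how stable the calls were. Only the 4 genes called in the main fit could lose a call. Of 24 alternatives, 11 kept all 4 and 9 kept 0. The sign changed for 3 marker genes with few reads, all with the block and a library left out, where *neurod1* and *pcolcea* had log2 fold changes of 0.0178 and 0.44 without EC library 1 and *pax7a* of 1.26 without EC library 3. The cause of these shifts was not tested. The 3 libraries per group and reads near 0 in ECs for many blood genes limit the precision.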

Other observations

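Members of the other cell type lists were counted in the same way. Of 35 skeletal muscle markers tested, 2 were higher and 0 were lower in HECs at an unadjusted *P*-value under 0.05 in edgeR. Of 39 neural markers, 7 were lower and 0 were higher. Lower counts were 4 of 14 mural cell markers (28.6%), 4 of 22 endoderm markers (18.2%), 3 of 21 notochord markers (14.3%) and 2 of 21 pronephros markers (9.52%), beside 6.91% of all genes. Of these lists the blocked fit called 1 gene lower, *podxl*, which is in both the pronephros and the pan-endothelial list. It is also 1 of the 2 lower pronephros markers counted here. The 4 lower endoderm markers include *hhex* and *prox1a*, which are in the pan-endothelial and the venous list. Shares without these genes were not computed, so whether the lower counts are particular to endoderm or pronephros was not tested. *elavl3*, the pan-neuronal RNA-binding protein, was at 203, 88.2 and 0 in ECs and 1.16, 143 and 0.158 in HECs, so it was high in EC libraries 1 and 2 and in HEC library 2. *krt4*, a keratin of the skin surface, was at 215 in HEC library 2 and below 1 in the other HEC libraries, and *sox10*, the neural crest factor, was at 49.2 in that library and at 0 in the other HEC libraries. As a whole the neural crest list was not higher there, with sums of 203, 140 and 143 in HECs. HEC library 2 also had the highest *kdrl* and *cdh5* of the HEC libraries. The part of these transcripts in the sibling contrast was not tested. Without HEC library 2 the blocked fit called 10 pan-endothelial genes lower, against 5 with it, and 13 red cell genes higher and 1 lower, against 13 and 0. Without EC library 2, EC library 3, HEC library 1 or HEC library 3 it called 0 pan-endothelial genes.

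The 3 genes that follow rose with the block, are in no list and were chosen after their values were seen. *wdr46*, a factor of small ribosomal subunit assembly, was at 40.7, 41.7 and 35.9 in ECs and 120, 121 and 198 in HECs. *ddx21*, a nucleolar helicase, was at 104, 59.0 and 88.3 in ECs and 276, 160 and 307 in HECs, and *rpf2*, a factor of large subunit assembly, had a log2 fold change of 1.42. In all 3 genes every HEC library lay above every EC library.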
